A study of Homo sapiens with 8 samples.

Results

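The genes described here encode the machinery that takes a cell from G1 into S phase and copies its DNA: 47 genes, listed by name, for origin recognition and licensing, the MCM helicase, origin firing, G1/S cyclins, DNA polymerases, the sliding clamp and its loader, replication protein A, nucleotide synthesis, and a few partners. The cells were 786-O, a long-established human line from a renal carcinoma whose VHL gene is not functional, kept for 6 h with pentamidine at 25 μM or with the vehicle DMSO alone. Pentamidine is an aromatic diamidine used against protozoa and Pneumocystis with a preference for AT-rich stretches of the DNA minor groove. RNA levels were read on Affymetrix arrays of 2 types, each with 2 DMSO and 2 pentamidine arrays. The duplicates are called biological in the labels, which leave unsaid whether both array types received the same RNA, so each type was compared alone. A gene was represented by its brightest probe set annotated to that gene alone, and 46 of the 47 had such a probe set on the first type, while the second had 8, out of 12165 and 8790 genes. The missing gene was CDK2, the kinase partner of cyclins E and A, whose 3 probe sets are annotated to CDK2 and BCO2 together and are not read here. All 46 passed the filter on low intensity on the first type, as did 5 of 8 on the second.

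In G1, the origin recognition complex marks replication origins, and CDC6 and CDT1 load the MCM2 to MCM7 helicase ring onto them. Cyclin E with CDK2 phosphorylates the retinoblastoma protein further, which frees E2F factors to drive many genes of this list. CDC7 with DBF4 and the cyclin kinases then switch the helicase on with CDC45 and the GINS complex, and polymerases, clamp, loader, nuclease and ligase make the new strands. In carcinoma lines these genes are usually high because many cells are cycling.

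Since many of these genes are known E2F targets, their promoters were searched for the site. In RefSeq windows on GRCh38.p14, running from 250 bases before to 50 bases after an annotated start, 41 of the 47 genes had at least 1 window. The E2F site was searched on both strands in these spellings: TTTCCCGC, TTTGGCGC, TTTCGCGC and TTTGCCGC. A match was found for 20 of the 41 genes (48.8%), against 3.99% of all 27305 genes with a window. A CCAAT box, the 5 letters CCAAT on either strand, was found for 26 of the 41 genes (63.4%) against 39.7% of all genes. The AT-rich letters AATT, of the kind pentamidine binds, were found for 14 of the 41 genes (34.1%) against 50.9%, and the median GC content was 66.5% against 58.3%. A gene with several windows was counted once if any window matched. These matches are letters in a window and do not show that a factor binds there.

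The windows of 4 genes are printed. ORC3 and E2F1 had the lowest and the highest fold change of the list, and MCM6 and MCM2 hold overlapping copies of the site. Capitals mark the E2F letters, on whichever strand they were found. ORC3 is at chr6:87589885-87590184 on the plus strand, E2F1 at chr20:33686336-33686635 on the minus strand, MCM6 at chr2:135876394-135876693 on the minus strand and MCM2 at chr3:127598161-127598460 on the plus strand. Each is written 5′ to 3′ in the direction of its gene.
ORC3: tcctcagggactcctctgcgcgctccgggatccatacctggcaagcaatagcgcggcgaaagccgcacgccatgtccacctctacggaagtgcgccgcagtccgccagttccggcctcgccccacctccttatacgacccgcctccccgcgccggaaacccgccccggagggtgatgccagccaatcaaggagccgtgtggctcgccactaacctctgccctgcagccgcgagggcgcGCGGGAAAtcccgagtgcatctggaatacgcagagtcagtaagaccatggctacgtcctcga
E2F1: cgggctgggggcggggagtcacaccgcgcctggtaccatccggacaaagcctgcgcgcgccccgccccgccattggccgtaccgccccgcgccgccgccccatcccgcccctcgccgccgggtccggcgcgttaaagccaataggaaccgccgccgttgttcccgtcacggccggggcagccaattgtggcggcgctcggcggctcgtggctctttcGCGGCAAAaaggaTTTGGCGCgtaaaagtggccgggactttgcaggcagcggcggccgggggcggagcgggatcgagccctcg
MCM6: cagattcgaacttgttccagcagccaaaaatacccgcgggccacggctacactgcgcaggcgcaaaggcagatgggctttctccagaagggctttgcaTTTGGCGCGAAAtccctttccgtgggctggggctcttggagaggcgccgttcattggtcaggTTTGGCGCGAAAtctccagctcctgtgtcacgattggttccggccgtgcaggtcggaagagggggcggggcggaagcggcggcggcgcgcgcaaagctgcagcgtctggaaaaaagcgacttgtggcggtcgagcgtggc
MCM2: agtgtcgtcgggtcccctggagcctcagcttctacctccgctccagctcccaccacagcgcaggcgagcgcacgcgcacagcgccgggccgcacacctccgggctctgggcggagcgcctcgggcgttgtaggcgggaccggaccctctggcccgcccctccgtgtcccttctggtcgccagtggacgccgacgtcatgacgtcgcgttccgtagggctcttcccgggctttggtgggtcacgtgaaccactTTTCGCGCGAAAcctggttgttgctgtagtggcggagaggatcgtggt
The window of MCM6 holds 4 matches in 2 places, each place a pair of sites that overlap head to head, while that of MCM2 holds 1 such pair, within the bases after the annotated start. ORC3 has 1 match, which begins 12 bases before the start.

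The arrays of the first type were close to each other, those of the second less so. The intensity on each array had been scaled to a common trimmed mean of 500.2 and 500.1 units for the first and second types. Correlations between arrays over log2 intensities were 0.972 to 0.982 and 0.829 to 0.860. Of 9 genes listed as marks of this renal line and measured on the first type, 7 lay above the table's median level, among them PAX8, KRT8, KRT18 and EPAS1, while PAX2 and LHX1 lay under it. PTPRC, CD3E, PECAM1, CDH5, COL3A1 and HBB, which mark leukocytes, endothelium, stroma and red cells, all lay under it. LCP1 and ACTA2, from the leukocyte and stromal lists, lay above it. On the second type 3 of the renal genes were measured: CDH6 lay above that table's median, KRT19 and EPAS1 under it, and the red cell gene ALAS2 lay above it. With 2 arrays per group, the number of arrays limits the precision of every value. The smallest 2-sided exact permutation p for a single value is 0.333, so only the limma fit over all probe sets was used as a test.

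**Figure D1:**
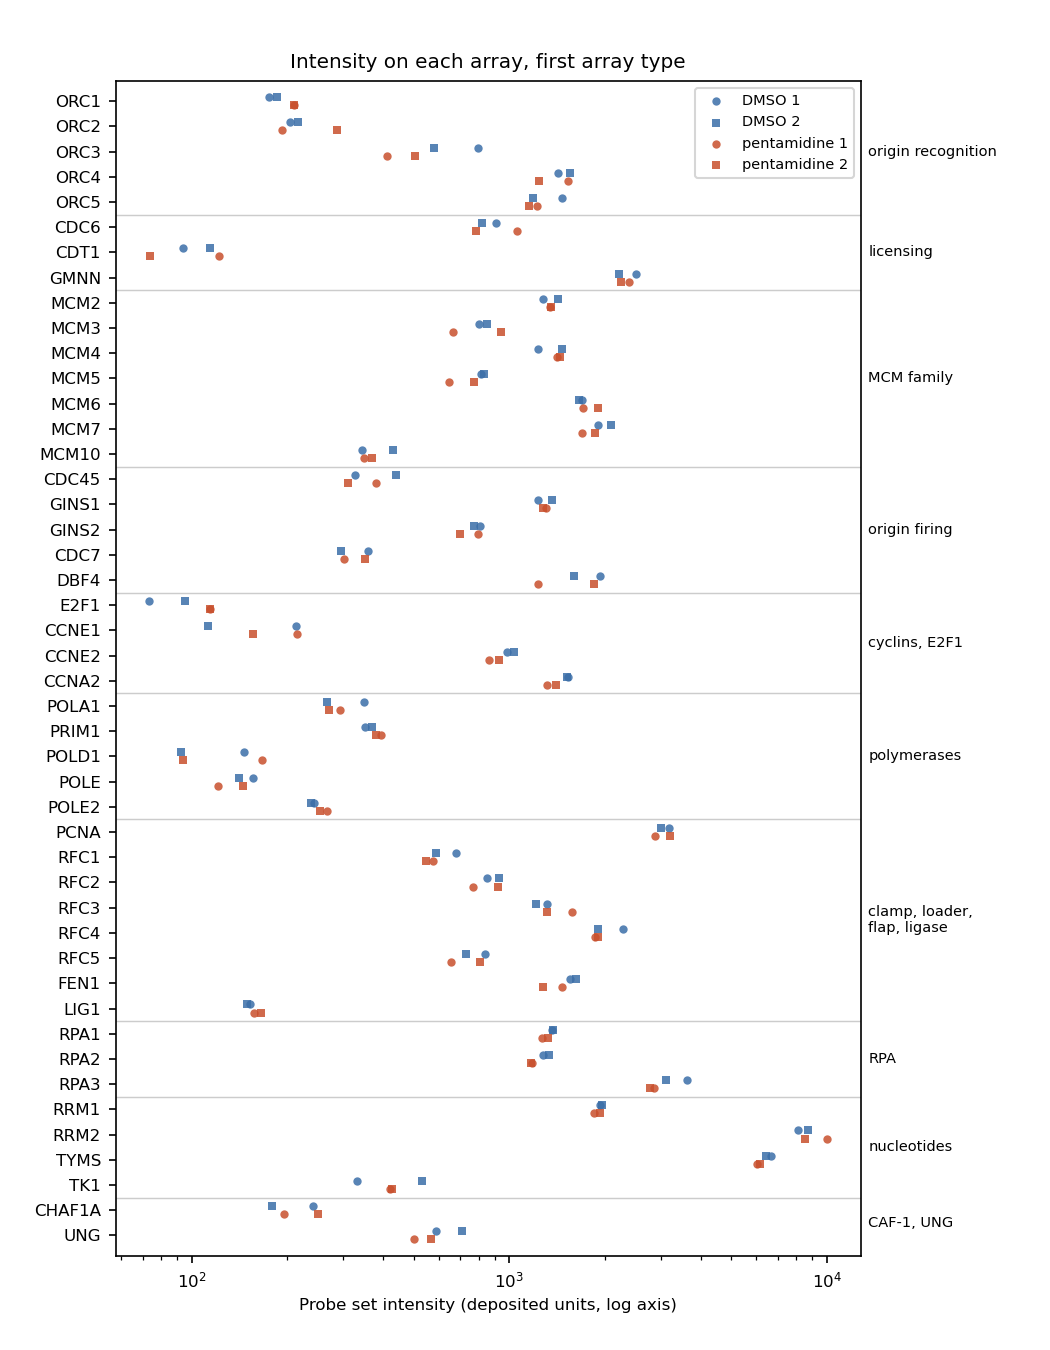
Intensity of each gene's brightest probe set on the 4 arrays of the first type, in deposited units on a log axis, with DMSO in blue and pentamidine in red and circles and squares for arrays 1 and 2. The mean in DMSO ran from 84.4 for E2F1 to 8439 for RRM2, and for most genes the blue and red points interleave or lie close together.

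The first comparison asked whether RNA of the replication genes was at another level under pentamidine, using the first array type. None of the listed genes passed. Mean intensity in DMSO ran from 84.4 for E2F1, close to the table's median of 81.3, to 8439 for RRM2, with a median of 844. No detection call was used, so presence is not established for the dim genes. On the log2(intensity + 16) scale none of the 46 genes lay 1.5-fold or more from DMSO by its brightest probe set, where 7.87% of all genes tested did. All 46 were above the table's median level, and of the genes above that level 1.73% lay that far out, so 0 of 46 is near the background. ORC3 lay close to that bound. Its log2 fold change was past it without DMSO array 2 (-0.79), without pentamidine array 2 (-0.70) and with median centring (-0.66). The other alternatives left ORC3 inside the bound. The log2 fold changes ran from -0.56 for ORC3 to 0.38 for E2F1, with a median of -0.08, while the median over all 9136 genes tested was 0.00. Above DMSO lay 15 genes and below it 31 (32.6% above, against 50.8% of all genes tested).

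No gene of the list was called by limma at an adjusted p under 0.05, where 0.0% of all 9136 genes were, and the lowest adjusted p in the list was 0.930. At an unadjusted p under 0.05, limma gave 0 of the 46, against 4.58% of all genes and 130 of the 6819 above the table's median level. With a variance trend, which lets bright probe sets have a smaller error, limma also called none (lowest adjusted p = 0.888). In that fit 2 of the 46, ORC3 and RPA3, had an unadjusted p under 0.05, against 4.87% of all genes and 360 of those 6819. For 19 of the 46 genes the groups were fully separate, against 36.0% of all genes: 7 above, against 18.2%, and 12 below, against 17.7%. Of the 6819 genes above the table's median level, 1132 were separate above and 1345 below. The median absolute log2 fold change was 0.11, and the median gap between arrays of a group was 0.14 in DMSO and 0.15 in pentamidine. Over all genes above the table's median level these were 0.13, 0.16 and 0.16. A difference between means of 2 arrays varies less than a gap between single arrays, so the sizes are described and not compared.

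The intervals show how large a difference these arrays could have missed. For 43 of the 46 genes the 95% interval of the limma fit stayed within 2-fold, and with the variance trend for 45, against 94.9% of all genes above the table's median level. The exception with the trend was E2F1, with an upper bound of 1.00. With the trend, the interval lay inside 1.5-fold for 34 of the 46, against 58.9% of those genes. The 12 genes whose intervals reached past 1.5-fold by the brightest probe set were ORC1, ORC2, ORC3, CDT1, DBF4, E2F1, CCNE1, POLD1, POLE, LIG1, CHAF1A and UNG. RNA here comes from whole cultures, so fewer cells in S phase and less of these RNAs per cell cannot be told apart.

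**Figure D2:**
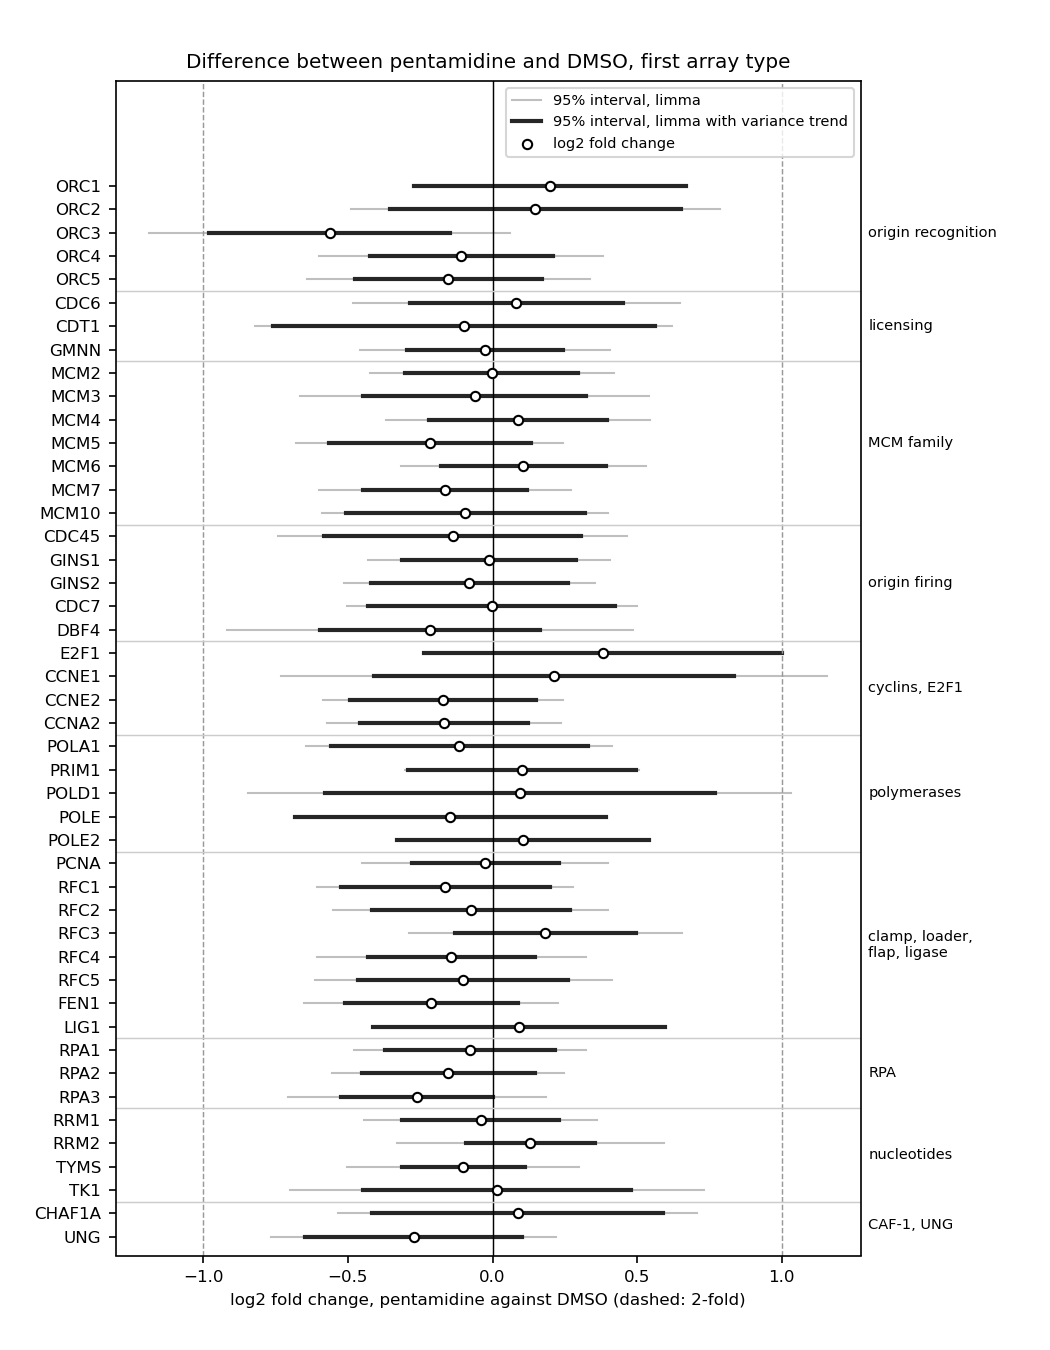
Log2 fold change of pentamidine against DMSO on the first array type for the 46 genes, ordered by role, with 95% intervals from limma (thin grey) and from limma with a variance trend (thick black), and dashed lines at 2-fold. The points run from -0.56 for ORC3 to 0.38 for E2F1, and with the trend the interval of ORC3 lies below 0 and that of RPA3 touches it.

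Among origin recognition genes, whose 5 measured subunits form the platform that marks an origin, 2 lay above DMSO and 3 below. ORC3, a core subunit, measured 798 and 581 intensity units on the DMSO arrays and 412 and 504 on the pentamidine arrays. Both pentamidine arrays were lower than both DMSO arrays, but the DMSO arrays were themselves far apart. Its log2 fold change was -0.56 (95% interval -1.19 to 0.06, n = 2 per group, limma adjusted p = 0.930; with the variance trend -0.98 to -0.15, adjusted p = 0.888). ORC1, the ATPase subunit that is made and destroyed within each cycle, measured 175 and 186 units in DMSO against 210 and 210 in pentamidine, which do not overlap. Its log2 fold change was 0.20 (95% interval -0.20 to 0.60). ORC5, another subunit, measured 1469 and 1186 units in DMSO against 1219 and 1153 in pentamidine, which overlap (-0.15, interval -0.64 to 0.34). ORC2 had 0.15 and ORC4 -0.11.

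By their brightest probe sets on this type, the 3 licensing genes had small differences with overlapping arrays. CDC6, the ATPase that loads the helicase, measured 906 and 820 units in DMSO against 1058 and 788 in pentamidine, so that the pentamidine arrays lay on either side of both DMSO arrays (log2 fold change 0.08, 95% interval -0.48 to 0.65). A second probe set of CDC6, at 565 and 746 units in DMSO against 756 and 754 in pentamidine, lay above DMSO without overlap at 0.21. CDT1, the loading partner of CDC6, measured 93.6 and 114 units in DMSO against 122 and 74.1 in pentamidine, again with the pentamidine arrays outside the DMSO range (-0.10, interval -0.82 to 0.62). That probe set is dim, and a brighter one of CDT1 on the second type lay below DMSO without overlap at -0.56. GMNN, or geminin, which binds CDT1 and blocks a second round of licensing, measured 2498 and 2219 units in DMSO against 2375 and 2253 in pentamidine (-0.03, interval -0.46 to 0.41). Its pentamidine values lay between its DMSO values.

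The helicase genes lay close to DMSO as well. By the brightest probe sets of 7 MCM genes, 2 lay above DMSO and 5 below (median log2 fold change -0.06), and with the variance trend the intervals of these 7 probe sets stayed inside 1.5-fold. Another probe set of MCM4 lay above DMSO without overlap at 0.35 (trend interval -0.06 to 0.76). Another of MCM5 lay below without overlap at -0.34 (trend interval -0.83 to 0.15). Both of these intervals reached past 1.5-fold. MCM5, a ring subunit, measured 815 and 832 units in DMSO against 645 and 774 in pentamidine, which do not overlap (log2 fold change -0.22, 95% interval -0.68 to 0.25). MCM7, another ring subunit, measured 1901 and 2089 units in DMSO against 1690 and 1867 in pentamidine, also without overlap (-0.16, interval -0.60 to 0.27). A second probe set of MCM7 overlapped and gave 0.05. The subunits do not form a uniform group in direction. MCM6 lay above DMSO without overlap at 0.11, MCM4 had 0.09, MCM2 -0.00, MCM3 -0.06, and MCM10, a firing factor outside the ring, -0.09.

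All 5 genes of helicase activation lay below DMSO, by small amounts and with overlapping arrays in every case. DBF4, the regulatory subunit of the CDC7 kinase, measured 1928 and 1601 units in DMSO against 1233 and 1850 under pentamidine (log2 fold change -0.22, 95% interval -0.92 to 0.49). Only pentamidine array 1 was low for DBF4. CDC45, which joins the MCM ring to make the active helicase, measured 326 and 440 units in DMSO against 380 and 310 in pentamidine (-0.14, interval -0.74 to 0.47). GINS2 and GINS1, subunits of the complex that completes that helicase, had -0.08 and -0.01, and the kinase gene CDC7 had -0.00.

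Among regulators of the G1/S step, 2 genes lay above DMSO and 2 below. E2F1, the transcription factor upstream of much of the list, measured 73.6 and 95.2 units in DMSO against 114 and 114 in pentamidine. The arrays did not overlap, at a level near the table's median of 81.3, and the log2 fold change was 0.38 (95% interval -0.11 to 0.87; limma adjusted p = 0.930). Its second probe set measured 104 and 79.8 units in DMSO against 81.8 and 98.8 in pentamidine, which overlap, and gave -0.02. CCNE2, an E-type cyclin, measured 982 and 1036 units in DMSO against 860 and 929 in pentamidine without overlap (-0.17, interval -0.59 to 0.24). CCNA2, the S phase cyclin, lay at -0.17, while its second probe set overlapped and gave 0.13. CCNE1, the other E-type cyclin, lay at 0.21, with DMSO arrays at 214 and 112 units.

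Polymerase genes lay on both sides of DMSO, 3 above and 2 below, none by more than 0.15 in size. POLE, the catalytic subunit of the leading strand polymerase, measured 156 and 141 units in DMSO against 121 and 146 in pentamidine, which overlap (log2 fold change -0.15, 95% interval -0.61 to 0.32). POLE2, its second subunit, measured 243 and 237 units in DMSO against 266 and 253 in pentamidine, which do not overlap (0.11, interval -0.30 to 0.51). Subunits of 1 enzyme thus lay on opposite sides of DMSO, within intervals that overlap widely. PRIM1, the primase, had 0.10, POLA1, the polymerase that extends its primers, -0.12, and POLD1, the lagging strand polymerase, 0.09.

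Of 8 genes for the clamp, its loader, the flap nuclease and the ligase, 2 lay above DMSO and 6 below. FEN1, which trims the flaps of Okazaki fragments, measured 1552 and 1624 units in DMSO against 1466 and 1277 in pentamidine, which do not overlap (log2 fold change -0.21, 95% interval -0.65 to 0.23). RFC3, a loader subunit, measured 1311 and 1218 units in DMSO against 1572 and 1311 in pentamidine (0.18, interval -0.29 to 0.65). Pentamidine array 2 was barely above DMSO array 1 for RFC3. RFC5, another loader subunit, measured 841 and 730 units in DMSO against 658 and 810 in pentamidine (-0.10, interval -0.61 to 0.41). Its second probe set, at 384 and 422 units in DMSO against 600 and 464 in pentamidine, lay above DMSO without overlap at 0.38. PCNA, the sliding clamp itself, was nearly level at -0.03 (interval -0.45 to 0.40). RFC1, RFC2 and RFC4 had -0.16, -0.08 and -0.14, and LIG1, the ligase that seals the fragments, 0.09.

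The 3 genes of replication protein A, the trimer that coats unwound DNA, were all below DMSO without overlap, against 17.7% of all genes. RPA3, the smallest subunit, measured 3635 and 3117 units in DMSO against 2846 and 2766 under pentamidine (log2 fold change -0.26, 95% interval -0.71 to 0.19, limma adjusted p = 0.930; with the variance trend an adjusted p of 0.888). RPA2 measured 1279 and 1337 units in DMSO against 1176 and 1173 in pentamidine (-0.15, interval -0.55 to 0.25). RPA1, the large subunit, measured 1363 and 1370 units in DMSO against 1268 and 1320 in pentamidine (-0.08, interval -0.48 to 0.32). A second probe set of RPA1, at 866 and 1007 units in DMSO against 1015 and 1077 in pentamidine, lay above DMSO without overlap at 0.16, so the direction of RPA1 depends on the probe set.

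Genes of nucleotide synthesis lay close to DMSO. RRM2, the subunit of ribonucleotide reductase that limits the supply of deoxynucleotides in S phase, measured 8128 and 8750 units in DMSO against 10015 and 8512 in pentamidine, which overlap (log2 fold change 0.13, 95% interval -0.33 to 0.59). TYMS, thymidylate synthase, measured 6653 and 6425 units in DMSO against 6008 and 6176 in pentamidine, which do not overlap (-0.10, interval -0.50 to 0.30). RRM1, the other reductase subunit, had -0.04, and TK1, thymidine kinase, 0.02 with DMSO arrays at 331 and 531 units. A second probe set of RRM1, at 1009 and 1380 units in DMSO against 1343 and 1462 in pentamidine, overlapped and gave 0.24. By the brightest probe sets, all 4 intervals with the variance trend lay inside 1.5-fold.

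CHAF1A, which deposits histones behind the fork, measured 242 and 179 units in DMSO against 196 and 251 in pentamidine, which overlap (log2 fold change 0.09, 95% interval -0.53 to 0.71). A second probe set of CHAF1A measured 126 and 151 units in DMSO against 291 and 170 in pentamidine, without overlap. It gave 0.64, past 1.5-fold (95% interval -0.16 to 1.43, limma adjusted p = 0.930). With the variance trend its interval was 0.06 to 1.21 and its limma adjusted p 0.888. The remaining one gave -0.01. UNG, which removes uracil from new DNA, measured 588 and 710 units in DMSO against 500 and 567 in pentamidine, which do not overlap (-0.27, interval -0.76 to 0.22).

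The split of the list around DMSO differed with the level of the gene and the choice of probe set. Of the 10 genes with a mean intensity under 250 units, 8 lay above DMSO, as did 57.6% of all genes tested at that level. Of the 16 genes from 250 to 1000 units, 3 lay above, against 43.4% of all genes there, and of the 20 genes at 1000 units or more, 4 lay above, against 46.7%. Their part in the list's median was not tested. Of the 46 genes, 18 had other probe sets past the filter. By their brightest probe sets 6 of these 18 lay above DMSO and 12 below, with a median of -0.09, while of their 22 other probe sets 12 lay above and 10 below, with a median of 0.06. Centring each array on its median shifts all genes alike: the split of the 46 became 9 above and 37 below, the share of all genes above DMSO went from 50.8% to 34.3%, and the median of all genes from 0.00 to -0.09. Relative to the median of all genes, 15 of the 46 lay above and 31 below with either scaling, since a uniform shift cannot change that split. After quantile normalization the split was 17 above and 29 below DMSO, and 21 above and 25 below relative to the median of all genes.

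Where a gene had several probe sets past the filter, they often differed in direction. This was the case for 12 of 18 genes: CCNA2, CHAF1A, E2F1, MCM4, MCM7, ORC5, RFC1, RFC2, RFC3, RFC5, RPA1 and RRM1. Over the 18, the probe sets of a gene lay a median of 0.23 apart on the log2 scale, up to 0.65 for CHAF1A. MCM4 had 0.09, 0.35 and -0.14 by its 3 probe sets. ORC5 had -0.15 and -0.24 by its brighter ones and 0.35 by a dim one at 19.3 and 21.4 units in DMSO against 19.9 and 43.5 in pentamidine. RRM2, ORC4, CDC6, FEN1, CCNE2 and MCM5 kept 1 direction, with RRM2 at 0.13 and 0.10 and MCM5 at -0.22 and -0.34. None of the 46 brightest and 22 other probe sets was called by limma with or without the variance trend.

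**Figure D3:**
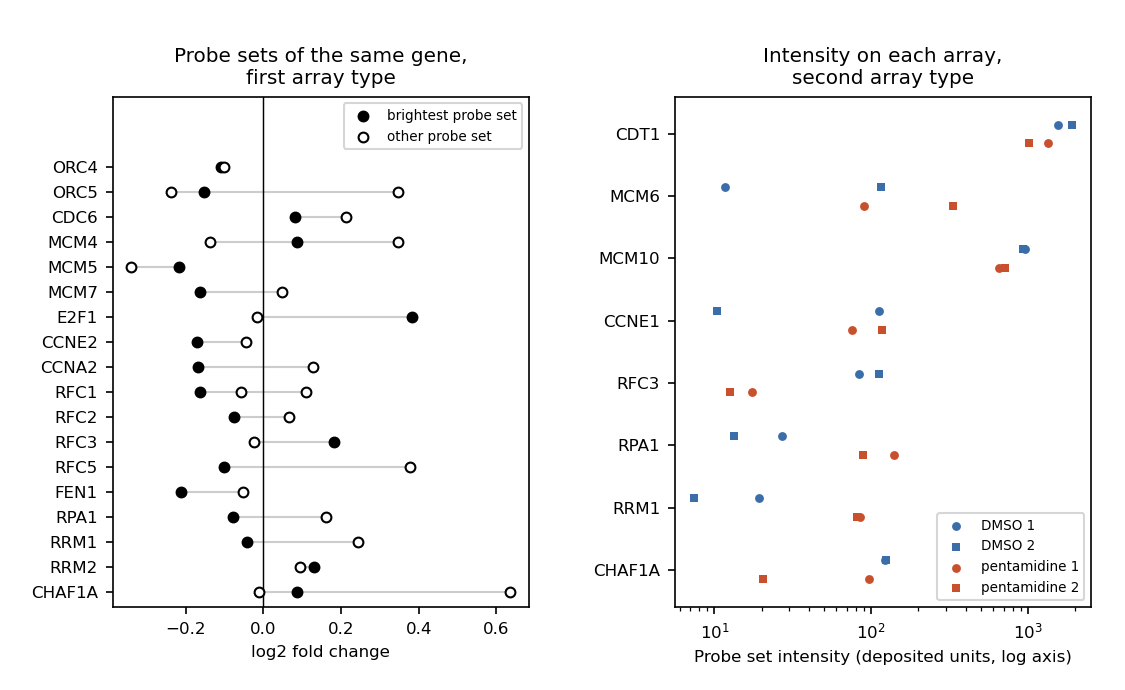
Left, log2 fold change of pentamidine against DMSO for each probe set past the filter of the 18 genes with several on the first array type, the brightest filled and the others open. Right, intensity of the 8 genes on the 4 arrays of the second type, on a log axis, where CDT1 and MCM10 are the only ones above 500 units and both have their pentamidine points to the left of their DMSO points.

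Genes with and without an E2F match in their promoter windows are described side by side. Of the 20 genes with a match, 6 lay above DMSO and 14 below (median log2 fold change -0.03). Of the 21 without, 8 lay above and 13 below, with a median of -0.08. Split by the AATT letters, 5 of 14 genes with a match and 9 of 27 without lay above DMSO, with medians of -0.07 and -0.06. These are descriptions of the same 41 genes, not separate tests.

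Other genes of the same pathway were likewise spread around DMSO on the first type, and none was called. Of 24 other G1/S control genes tested, 12 lay above and 12 below (median -0.01). E2F4, a mainly repressive E2F, measured 185 and 215 units in DMSO against 319 and 267 under pentamidine (log2 fold change 0.51, 95% interval 0.02 to 1.00, limma adjusted p = 0.930). E2F8, an atypical repressor, measured 228 and 228 units in DMSO against 177 and 149 in pentamidine (-0.45, interval -0.90 to -0.00, before adjustment), and the CDK inhibitor CDKN1C had 0.55. Neither passed over all probe sets, although their arrays did not overlap.

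Of 32 other replication factors, 15 lay above and 17 below (median -0.02). WDHD1, which links the helicase to the primase polymerase, measured 105 and 133 units in DMSO against 206 and 198 under pentamidine (log2 fold change 0.70, 95% interval 0.21 to 1.19, limma adjusted p = 0.930). DNMT1, the maintenance DNA methyltransferase, measured 954 and 906 units in DMSO against 659 and 764 in pentamidine (-0.38, interval -0.83 to 0.06), and SLBP, which binds histone messages, had -0.31. Of 11 other nucleotide synthesis genes, 6 lay above and 5 below (median 0.00), with DCK at -0.28, GART at 0.22 and SAMHD1 at 0.30.

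Mitotic genes, which follow S phase in the cycle, lay further below DMSO than the replication genes, though no difference between the lists was tested: 5 of 22 lay above and 17 below (median -0.13), and 11 of the 22 were below without overlap, against 12 of the 46 replication genes and 17.7% of all genes. BUB1B, a spindle checkpoint kinase, measured 1307 and 1269 units in DMSO against 904 and 1110 in pentamidine (-0.36, 95% interval -0.84 to 0.12). CCNB1 had -0.29 and AURKB -0.24. On the second type AURKB went the other way, at 145 and 234 units in DMSO against 353 and 296 in pentamidine (0.76, interval -0.35 to 1.86). There 4 of 6 mitotic genes lay above DMSO and 2 below. Of 17 DNA repair genes on the first type, 8 lay above and 9 below (median -0.03), with ERCC1 at 0.38, XPC at 0.47 and CHEK2 at -0.33. None of these genes was called.

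**Figure D4:**
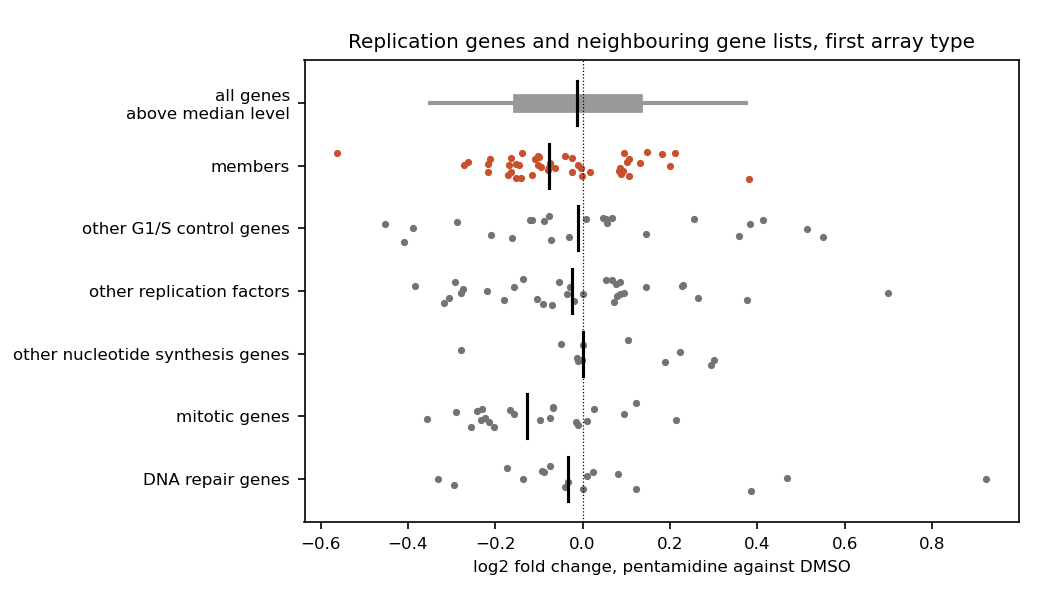
Log2 fold change of pentamidine against DMSO on the first array type for the replication genes (red), 5 neighbouring lists (grey points) and all genes above the table's median level (thick bar from the 25th to the 75th percentile, thin bar from the 5th to the 95th), with medians as black ticks. The red points lie within the thin bar except ORC3 and E2F1, and the median of -0.08 lies between those of all genes and the mitotic list at -0.13.

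The second comparison used the other array type, which reads these genes through different and mostly dim probe sets. No gene passed, and the 2 bright ones lay below DMSO. CDT1 measured 1566 and 1919 units in DMSO against 1340 and 1018 in pentamidine. Both pentamidine arrays were lower than both DMSO arrays, and the log2 fold change was -0.56 (95% interval -1.54 to 0.42, n = 2 per group, limma adjusted p = 0.959; with the variance trend -1.05 to -0.08, adjusted p = 0.902). MCM10 measured 960 and 928 units in DMSO against 656 and 712 in pentamidine, also without overlap, at -0.46 (interval -1.30 to 0.38). A second MCM10 probe set, at 764 and 692 units in DMSO against 383 and 944 in pentamidine, overlapped and gave -0.26.

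On the first type the same genes had -0.10 for CDT1, whose probe set there is dim, and -0.09 for MCM10. The 3 other genes past the filter were dim and wide. MCM6 measured 11.7 and 116 units in DMSO against 89.9 and 334 under pentamidine (log2 fold change 1.68, 95% interval -1.47 to 4.82), while its bright probe set on the first type gave 0.11. CCNE1 measured 112 and 10.4 units in DMSO against 75.6 and 117 in pentamidine (0.93, interval -1.71 to 3.56). CHAF1A measured 122 and 125 units in DMSO against 97.3 and 20.3 in pentamidine (-1.12, interval -3.06 to 0.82).

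Of these 5 genes, 2 lay above DMSO and 3 below, where 49.6% of all genes lay above, and 3 lay at least 1.5-fold from DMSO, against 30.1%. Those 3 were MCM6, CCNE1 and CHAF1A. Their means in the lower group (63.6, 61.3 and 58.8 units) lay under the filter of 76.8. They passed only through the group where they were high, so the count of 3 is not a result about the list. None of the 5 lay above without overlap, against 17.2%. No overlap was seen for 3 of the 5, all below, as for 18.2% of the 6999 genes tested. Limma called 0 of the 5, against 0.0% of all genes, and none had an unadjusted p under 0.05, against 5.50%. With the variance trend limma called 0 of the 5, against 0.0127% of all probe sets, and CDT1 had an unadjusted p under 0.05, against 5.63%. RFC3, RPA1 and RRM1 lay under the filter and were not tested. RRM1 measured 19.3 and 7.38 units in DMSO against 84.4 and 81.0 in pentamidine, a log2 difference of 1.78, while its bright probe set on the first type gave -0.04. RPA1 and RFC3 differed by 1.85 and -1.87 there, against -0.08 and 0.18 on the first type. Of the 8 genes on both types, 4 had the same sign. Among the 5 past the filter on both, 4 did, CHAF1A being the exception. Of those 4, MCM6 and CCNE1 passed the filter of the second type only through their pentamidine arrays. The 3 genes under the filter all had opposite signs, so the count of 4 is not a measure of agreement between the types.

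The 3′ to 5′ ratios of the RNA quality controls, not a score of quality, lay lower in both pentamidine arrays of the second type. The ratio of the 3′ to the 5′ probe set of GAPDH was 0.843 and 0.806 in DMSO and 0.716 and 0.677 in pentamidine, and that of the actin control 1.47 and 1.27 against 1.23 and 1.21. Their part in the values of CDT1 and MCM10 was not tested. On the first type the ratios overlapped between the groups, at 0.966 and 0.861 in DMSO and 0.908 and 0.824 in pentamidine for GAPDH. Other lists were small on the second type: 4 of 9 other G1/S control genes, 6 of 13 other replication factors, 1 of 3 nucleotide synthesis genes, 4 of 6 mitotic genes and 4 of 7 DNA repair genes lay above DMSO, and none of them was called. SUPT16H, a subunit of the histone chaperone FACT, measured 1223 and 2734 units in DMSO against 2748 and 3302 in pentamidine (0.71, 95% interval -0.80 to 2.23, limma adjusted p = 0.985). With the variance trend its interval was 0.24 to 1.19 and its limma adjusted p 0.675.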

How the data were processed

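The authors deposited an intensity on a linear scale for each probe set, in 1 table per array type. Per the submitters' processing notes they used Expression Console of Affymetrix, with no version or algorithm given in the sources used here. Probe sets were named by the platform annotation, updated by gene ID to RefSeq symbols (GRCh38.p14): 19713 and 13548 probe sets matched. Of the 22277 and 22665 probe sets, 568 and 212 listed several genes and 1979 and 8865 none, and none of these was named.

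Control probe sets (62 and 88) and those with a mean under the 30th percentile were left out, which kept 15550 and 15804. Log2(intensity + 16) was fitted with limma 3.58.1 in R 4.3.3 (lmFit, eBayes, no block) within each array type, with Benjamini-Hochberg adjustment over all probe sets kept and a threshold of 0.05. Fold changes are on that scale, which understates those of dim genes. The fit was tested on simulated data. The genes and lists were chosen with earlier results of these data known. Values on each array are given for the 2 genes of each role with the largest absolute moderated t (all where a role had up to 3), for genes with another probe set opposed by at least 0.3, for all tested genes of the second type, and for up to 3 genes of each other list. Alternatives covered scaling, filter, offset, variance model, replicate block, probe set choice and leaving out each array.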

Additional observations from a re-analysis of the deposited data

How the results depend on the processing

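No gene of the list was called on either array type under any alternative run: quantile normalization, median centring, no filter, a 50th percentile filter, offsets of 1 and 64, a variance trend, a robust prior, the replicate block, the median over a gene's probe sets and leaving out each array. Over all probe sets the count called stayed at 0, except for 2 on the second type with the variance trend, neither of them a probe set of this list. Median centring shifts all genes of an array type alike. On the first type it left 9 of 46 genes above DMSO in place of 15, while the share of all genes above went from 50.8% to 34.3%. Such a shift cannot change the split around the median of all genes, which stayed at 15 of 46 above. After quantile normalization 21 of 46 lay above that median. On the second type the median of all genes went from -0.00 to -0.11. On the second type the 50th percentile filter left 3 genes, 1 of them above DMSO, since it tests fewer genes.

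Without each array in turn, 17 to 20 of 46 genes lay above DMSO on the first type (median -0.09 to -0.04) and 1 to 2 of 5 on the second (median -0.43 to -0.30), the 1 being without DMSO array 2. Median centring turned the sign of CDC6 (-0.015) and CHAF1A (-0.011), which lay close to 0. The median over probe sets turned RFC5 (0.14) and RPA1 (0.041), being the midpoint of 2 probe sets of opposite sign. When an array was left out, values ranged from -0.35 to 0.069 for CDC45, -0.13 to 0.29 for CDC6, -0.41 to 0.21 for CDT1, -0.12 to 0.29 for CHAF1A, -0.51 to 0.073 for DBF4, -0.11 to 0.059 for GMNN and -0.25 to 0.046 for RFC5, and from -0.21 to 2.07 for CCNE1 on the second type. The others kept their sign but could move widely: ORC3 from -0.79 to -0.34, E2F1 from 0.23 to 0.54, ORC5 from -0.31 to -0.00047, MCM5 from -0.34 to -0.088, POLE from -0.27 to -0.026, RRM2 from 0.013 to 0.25, RFC3 from 0.053 to 0.31, and on the second type MCM6 from 0.55 to 2.80, CHAF1A from -1.94 to -0.30 and CDT1 from -0.76 to -0.37.

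With the replicate number as a block, the fit gave 0 called probe sets on each type and changed no call. Same-numbered arrays did not deviate together (correlations of 0.0048 and 0.011 for the first and second types), and with 2 pairs the numbers do not establish a pairing. On the second type 5 genes of the list passed the filter, and the standard error of a bright one, CDT1, was 0.34 there.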
